A study of Drosophila melanogaster with 8 samples.

Results

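The homeotic genes labial (lab), proboscipedia (pb), Deformed (Dfd), Sex combs reduced (Scr), Antennapedia (Antp), Ultrabithorax (Ubx), abdominal-A (abd-A) and Abdominal-B (Abd-B) were examined for open chromatin in primordial germ cells (PGCs) and in somatic cells of Drosophila embryos. Every ATAC-seq peak that shared at least 1 bp with the body of one of these 8 genes, or with the 10000 bp on either side of it, was taken (release 6 of the genome, dm6). This gave 102 of the 19504 PGC peaks and 63 of the 17411 somatic peaks found on the 6 main chromosomes and chromosome arms, without the Y. ATAC-seq uses a transposase that cuts and tags accessible DNA. Both cell types came from late embryos, laid overnight at 25°C by flies of genotype Vas::EGFP, in which GFP is attached to the germline protein Vasa. Cells with GFP were sorted as PGCs and cells without GFP, a mixture of all other tissues and of all segments, as somatic cells, with 2 replicates of each. The authors averaged both replicates before they called peaks, so the spread of replicates and the depth of single samples are not known, and cell types were compared without a test. Peak heights are given in RPKM, the read coverage at the summit scaled by the mapped reads of the library, and both lists start at 50 RPKM. Intervals on shares are 95% intervals by the exact Clopper-Pearson method; they reflect counting error alone, because peaks are not replicates.

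Homeotic genes encode homeodomain transcription factors that give each segment of the body its identity. In flies they lie in the Antennapedia complex (lab, pb, Dfd, Scr and Antp) and in the Bithorax complex (Ubx, abd-A and Abd-B), in an order that follows the body axis from head to abdomen. Large introns and intergenic regions hold enhancers, insulators and Polycomb response elements, which keep each gene silent or active in a given segment through many cell divisions. The core Polycomb complexes lack sequence specificity of their own and depend on DNA-binding partners, among them Pleiohomeotic, while GAGA factor, the product of Trithorax-like, binds GA repeats at promoters and at such elements. In embryos, homeotic genes are expressed in somatic segments, whereas germ cells are transcriptionally silent when they first form.

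The summit sequences of 10 peaks are shown, the highest promoter peak of 7 of the genes and 3 high intronic peaks. They were picked because the motifs discussed below, together or alone, can be read in them. Each is written from 5′ to 3′ on the strand of its gene, from the release 6 assembly (dm6), with annotated UTRs left out. Capitals mark GAGAG or its reverse complement CTCTC, the letters bound by GAGA factor, and GCCAT or ATGGC, the core letters of the Pleiohomeotic site.
lab promoter, 181.6 RPKM in PGCs, chr3R:6678591-6678725, reverse strand: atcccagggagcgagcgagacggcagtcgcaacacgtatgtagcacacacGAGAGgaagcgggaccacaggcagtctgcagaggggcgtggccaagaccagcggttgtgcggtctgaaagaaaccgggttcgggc
Dfd promoter, 346.6 RPKM in PGCs, chr3R:6791576-6791775, forward strand: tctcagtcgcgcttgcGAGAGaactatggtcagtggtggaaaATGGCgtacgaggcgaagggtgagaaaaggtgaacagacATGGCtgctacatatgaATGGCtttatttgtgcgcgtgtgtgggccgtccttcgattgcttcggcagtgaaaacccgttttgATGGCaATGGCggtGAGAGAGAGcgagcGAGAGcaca
Scr promoter, 214.7 RPKM in PGCs, chr3R:6848726-6848925, reverse strand: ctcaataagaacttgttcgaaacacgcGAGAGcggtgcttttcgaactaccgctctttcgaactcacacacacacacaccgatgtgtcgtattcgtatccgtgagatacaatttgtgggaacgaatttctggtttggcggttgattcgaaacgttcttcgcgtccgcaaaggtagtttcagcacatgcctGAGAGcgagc
Antp downstream promoter, PGC list only, 203.0 RPKM in PGCs, chr3R:6932841-6933025, reverse strand: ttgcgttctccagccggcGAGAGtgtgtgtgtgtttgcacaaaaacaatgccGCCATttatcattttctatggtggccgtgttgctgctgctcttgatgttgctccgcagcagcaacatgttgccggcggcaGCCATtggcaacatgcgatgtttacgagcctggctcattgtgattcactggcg
Ubx promoter, 94.2 RPKM in PGCs, chr3R:16734451-16734650, reverse strand: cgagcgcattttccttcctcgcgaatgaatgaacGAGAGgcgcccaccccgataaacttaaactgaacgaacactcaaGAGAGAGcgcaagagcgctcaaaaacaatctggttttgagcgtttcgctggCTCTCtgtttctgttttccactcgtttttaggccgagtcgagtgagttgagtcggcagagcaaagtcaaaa
abd-A promoter, 207.9 RPKM in PGCs, chr3R:16830126-16830325, reverse strand: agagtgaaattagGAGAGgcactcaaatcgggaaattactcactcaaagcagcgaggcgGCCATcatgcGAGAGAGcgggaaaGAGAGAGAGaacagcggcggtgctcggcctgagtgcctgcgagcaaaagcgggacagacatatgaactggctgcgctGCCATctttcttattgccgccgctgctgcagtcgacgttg
Abd-B promoter, 353.9 RPKM in PGCs, chr3R:16934276-16934475, reverse strand: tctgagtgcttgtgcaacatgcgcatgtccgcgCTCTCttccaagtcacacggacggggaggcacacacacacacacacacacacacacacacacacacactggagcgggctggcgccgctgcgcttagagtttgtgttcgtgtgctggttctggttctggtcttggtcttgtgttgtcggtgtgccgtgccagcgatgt
Antp intron, PGC list only, 164.7 RPKM in PGCs, chr3R:6966726-6966925, reverse strand: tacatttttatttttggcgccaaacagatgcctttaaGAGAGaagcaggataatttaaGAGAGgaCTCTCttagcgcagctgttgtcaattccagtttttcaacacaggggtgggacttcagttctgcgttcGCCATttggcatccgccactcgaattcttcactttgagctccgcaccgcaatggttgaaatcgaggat
Ubx intron, 429.6 RPKM in PGCs, chr3R:16702976-16703175, reverse strand: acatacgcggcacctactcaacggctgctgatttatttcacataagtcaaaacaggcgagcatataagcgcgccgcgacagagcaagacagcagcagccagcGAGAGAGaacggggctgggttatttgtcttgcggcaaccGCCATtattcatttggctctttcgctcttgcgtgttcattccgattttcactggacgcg
abd-A intron, 249.2 RPKM in PGCs, chr3R:16811876-16812075, reverse strand: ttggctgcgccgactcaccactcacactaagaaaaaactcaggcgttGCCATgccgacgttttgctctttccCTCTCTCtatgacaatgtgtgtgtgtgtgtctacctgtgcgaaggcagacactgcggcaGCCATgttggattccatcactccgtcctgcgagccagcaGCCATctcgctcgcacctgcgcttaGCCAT
The GA motif was found in all 10 sequences, which were picked and do not stand for all peaks of the windows. The Pleiohomeotic core was found in all 3 introns and in the promoters of Dfd, Antp and abd-A, and it was absent from the promoter sequences of lab, Scr, Ubx and Abd-B. The promoter peak of pb, which is not shown, held 2 Pleiohomeotic cores and no GA motif within 100 bp of its summit. The highest distal PGC peaks of pb, Dfd, Scr and Antp also lacked the GA motif, whereas those of lab, Ubx and abd-A held it.

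As a check of the sort, all 11 germline marker genes had a PGC peak whose summit lay within 500 bp of a start site, and 3 of them (nos, zpg and stil) had a somatic one. Of 17 marker genes of somatic tissues, 14 had such a peak in the PGC list, 14 in the somatic list and 12 in both. The PGC list therefore held promoters of somatic genes too. Over all 13945 protein-coding genes, 48.2% had such a peak in the PGC list, 28.2% in the somatic list and 23.7% in both. The somatic markers bap and ase had a promoter peak in the somatic list only, srp and tj in the PGC list only, and nSyb in neither. The part of remaining somatic cells in the PGC sort was not tested. In the PGC list 3872 peaks (19.9%) reached 100 RPKM, and in the somatic list 908 (5.22%). Each list was scaled by its own reads, so a height is also given as a percentile, the share of peaks in the same list that are lower. In sorted bulk material, a lower peak can come from fewer open cells or from less open chromatin per cell, and these cannot be told apart.

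All 8 homeotic genes had a promoter peak in both lists, that is, a summit within 500 bp of an annotated start site of the gene. Among 13945 protein-coding genes, 48.2% had a promoter peak in the PGC list, 28.2% in the somatic list and 23.7% in both. Among the 1865 protein-coding genes at least as long as Dfd, the shortest of the 8 at 10593 bp, these shares were 69.3%, 46.7% and 43.6%. The highest promoter peak of each gene was higher in the PGC list than in the somatic list at all 8 genes. Over the whole lists, the PGC peak was the higher one at 64.5% of shared peaks. Where the PGC peak reached 100 RPKM, this held at 2694 of 2822 shared peaks. By percentile, the highest promoter peaks of lab, pb, abd-A and Abd-B stood higher in the somatic list, and those of Dfd, Scr, Antp and Ubx in the PGC list. At Antp these were peaks of different start sites, the downstream one in PGCs and the upstream one in somatic cells. At the upstream site alone the percentiles were 92.3 in PGCs and 43.0 in somatic cells. In the PGC list the order from the highest to the lowest was Abd-B, Dfd, Scr, abd-A, Antp, lab, Ubx and pb. In the somatic list it was Abd-B, abd-A, lab, Dfd, pb, Scr, Antp and Ubx. Neither order follows the body axis. Without a spread, it cannot be said which neighbours in these orders differ.

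**Figure D1:**
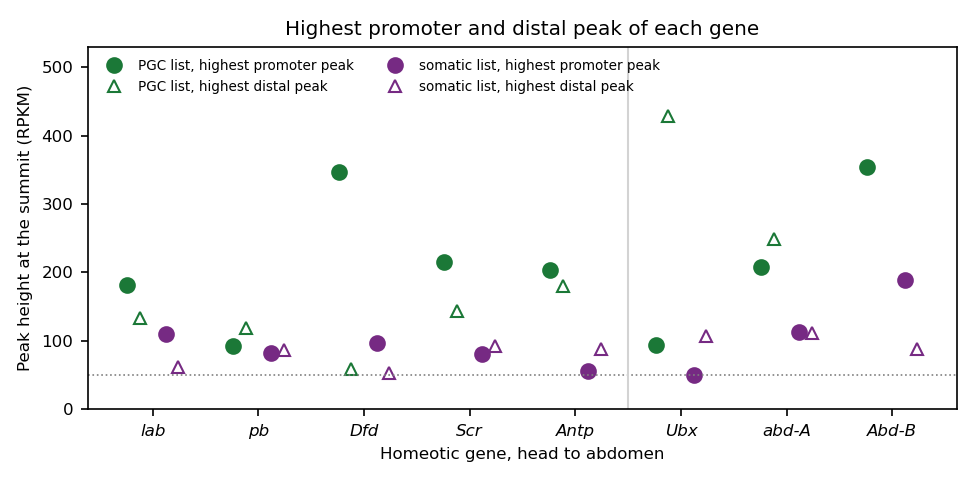
Highest promoter peak (filled circles) and highest distal peak (open triangles) of each homeotic gene, in RPKM, in the PGC list (green) and the somatic list (purple). The genes are ordered from head to abdomen, with the Antennapedia complex left of the grey line, and the dotted line marks the lowest height in both lists, 50 RPKM. The somatic promoter peak lies at 50 RPKM at Ubx and at 188.8 RPKM at Abd-B, and the PGC distal peak of Ubx lies at 429.6 RPKM. The circles of Antp stand for different start sites, downstream in the PGC list and upstream in the somatic list.

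The gene lab, which acts in the embryonic head and in the midgut, lies on the reverse strand of 3R from 6661427 to 6678590. Its promoter peak, from 6678101 to 6678800, reached 181.6 RPKM in PGCs against 109.4 RPKM in somatic cells, at percentiles 93.9 and 96.0. Against the other peaks of each list, the promoter thus stood about as high in both cell types. The highest distal peak in PGCs, 133.6 RPKM from 6683251 to 6683500, lay between genes at -4836 bp from the start site and was found only in the PGC list. The highest distal somatic peak, 62.2 RPKM from 6671201 to 6671300 in an intron, was found only in the somatic list. Of 13 PGC peaks in the window 3 were shared with the somatic list, and 4 of the 7 somatic peaks were shared with the PGC list. Most of the PGC peaks lay outside lab itself. The window also covers the genes Taf1, CG1307, twr, agt and the cuticle genes Edg84A and Ccp84Ag, and the peak at the promoter of CG1307 and twr (137.3 RPKM, 6657101 to 6658300) was among the highest PGC-only peaks of all windows.

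The gene pb, which specifies adult mouthparts together with Scr, lies on the reverse strand from 6707800 to 6742063. Its promoter peak had the same borders in both lists, 6741651 to 6742250, with 92.4 RPKM in PGCs against 82.3 RPKM in somatic cells. This was the smallest difference among homeotic promoter peaks found in both lists, 1.12-fold, and the percentile was higher in the somatic list (89.9 against 77.3). The highest distal PGC peak, 119.0 RPKM from 6708951 to 6709150, lay in an intron near the 3′ end and was absent from the somatic list. The highest distal somatic peak, 85.8 RPKM from 6704551 to 6704800, lay in an exon of the neighbouring cuticle gene Ccp84Aa and had a PGC counterpart of 97.6 RPKM. Of 9 PGC peaks in the pb window 5 were shared, as were 5 of 7 somatic peaks.

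The gene Dfd, which acts in the maxillary and mandibular segments, lies on the forward strand from 6791836 to 6802428. It had the second highest homeotic promoter peak in PGCs, 346.6 RPKM from 6791501 to 6791950, with 97.1 RPKM in somatic cells. The summit lay 160 bp upstream of the start site in both lists, and the sequence shown above holds both the GA motif and the Pleiohomeotic core several times. The 3.57-fold difference was the largest among homeotic promoter peaks found in both lists. The rest of the gene was poor in peaks. The only other peak in its body, in an exon from 6792601 to 6792800, reached 58.8 RPKM in PGCs against 52.9 RPKM in somatic cells and was the highest distal peak of the window in both lists. The window held 4 PGC peaks and 4 somatic peaks, of which 3 and 3 were shared.

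The gene Scr, which specifies the labial and first thoracic segments, lies on the reverse strand from 6823120 to 6849981 and has annotated start sites at 6849981 and 6848505. The downstream start site, used by 4 transcripts, had a peak of 214.7 RPKM in PGCs (6848601 to 6849050) against 80.1 RPKM in somatic cells (6848551 to 6848950). The upstream start site, used by 1 transcript, had a peak of 92.3 RPKM in the PGC list only. Downstream of the gene, a pair of neighbouring peaks at the long noncoding RNA gene lncRNA:CR42651 had the opposite order of heights. The highest distal somatic peak of the window, 91.9 RPKM from 6815301 to 6815950, met a PGC peak of 60.5 RPKM, the lowest ratio of all shared peaks in the windows (0.658). Next to it, 60.3 RPKM in PGCs met 87.0 RPKM in somatic cells. The highest distal PGC peak, 143.3 RPKM from 6818801 to 6819500, lay between genes and reached 70.3 RPKM in somatic cells. Of 8 PGC peaks and 7 somatic peaks, 5 and 5 were shared, and the somatic-only peaks reached 60.3 RPKM (6817301 to 6817550) and 59.1 RPKM (6841451 to 6841550).

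The gene Antp, which specifies thoracic segments, is the longest of the 8, from 6896253 to 6999228 on the reverse strand, and it overlaps the gene CG46458. It has start sites at 6999228, 6958370 and 6932840, used by 5, 1 and 6 transcripts. The upstream one had a peak of 162.3 RPKM in PGCs against 55.5 RPKM in somatic cells, at percentiles 92.3 and 43.0. The downstream one, known as P2, had a peak of 203.0 RPKM in PGCs (6932701 to 6933100) and none in the somatic list, which made it the highest PGC-only peak of all windows. The start site at 6958370 had no peak in either list. The next highest PGC-only peak, 164.7 RPKM from 6966651 to 6967050, lay in an Antp intron, and its sequence holds 3 GA motifs and 1 Pleiohomeotic core within 100 bp of the summit. Antp introns also held the highest distal peak of each list. In PGCs it reached 180.0 RPKM (6912801 to 6913200) beside 74.2 RPKM in somatic cells, and in somatic cells 87.6 RPKM (6978351 to 6978650) beside 64.3 RPKM in PGCs. The most accessible site of the window in both lists was not at Antp itself but at -1748 bp from its upstream start site, at the promoter of lncRNA:CR45899, with 527.0 RPKM in PGCs against 125.5 RPKM in somatic cells. This peak and the one at lncRNA:CR45559, 231.6 RPKM in PGCs against 86.0 RPKM in somatic cells, were singled out after their values were seen. Of 25 PGC peaks 11 were shared, as were 11 of 14 somatic peaks.

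The gene Ubx, which specifies the third thoracic and first abdominal segments, lies on the reverse strand from 16656623 to 16734426 with 1 start site. Its promoter peak reached 94.2 RPKM in PGCs (16734351 to 16734750), and in somatic cells it was 50 bp wide (16734401 to 16734450) and lay at 50 RPKM, the lowest height in the list. Its presence in the somatic list therefore rests on the threshold. The highest distal peak of both lists lay deep in an intron, 31350 bp downstream of the start site, with 429.6 RPKM in PGCs (16702751 to 16703300) against 106.4 RPKM in somatic cells (16702901 to 16703200). The summit was at the same base in both lists, and the heights stood at percentiles 99.4 and 95.6. A further intronic peak, at 18650 bp, reached 162.5 RPKM in PGCs against 61.1 RPKM in somatic cells. In both lists these intronic peaks were higher than the peak at the Ubx promoter. At the noncoding gene asRNA:PS4, inside Ubx, a somatic peak of 68.7 RPKM (16719901 to 16720100) and a PGC peak of 59.2 RPKM (16719801 to 16719900) adjoined without sharing a base, and each was counted as found in 1 list only. Of 18 PGC peaks in the window 5 were shared, and many of the others were low and lay at the neighbours CCT3, CG14907 and modSP. Of the 9 somatic peaks 5 were shared, and a somatic-only intronic peak from 16662601 to 16662700 reached 58.8 RPKM.

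The gene abd-A, which specifies anterior and middle abdominal segments and is also needed by cells of the somatic gonad, lies on the reverse strand from 16807214 to 16830049. The peak at its upstream start sites (16830049 and 16829752) reached 207.9 RPKM in PGCs (16829951 to 16830400) against 113.5 RPKM in somatic cells (16830001 to 16830400). The highest distal peak of both lists lay in an intron, with 249.2 RPKM in PGCs (16811751 to 16812250) against 112.0 RPKM in somatic cells (16811801 to 16812150). Both pairs had their summits at the same base, and their percentiles were nearly the same in PGCs and somatic cells, 95.5 and 96.5 for the promoter and 97.3 and 96.3 for the intron. The third start site, at 16828105, had no peak within 500 bp in either list, and a PGC peak of 71.6 RPKM lay at 729 bp. Of 11 PGC peaks 4 were shared, and of 6 somatic peaks 4. At 8263 bp from the 3′ end of the gene, a peak between genes reached 160.5 RPKM in PGCs against 70.3 RPKM in somatic cells.

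The gene Abd-B, which specifies posterior abdominal segments and the genitalia and patterns the posterior gonad, lies on the reverse strand from 16927212 to 16972236 and has 6 start sites. The most downstream one, 16934242, had the highest homeotic promoter peak of both lists, 353.9 RPKM in PGCs (16934051 to 16935000) against 188.8 RPKM in somatic cells (16934201 to 16934900), at percentiles 99.0 and 99.4. The start site at 16960281 had 137.3 RPKM in PGCs against 65.9 RPKM in somatic cells, and that at 16963641 had 63.9 RPKM in PGCs only. The start sites at 16972236 and 16968574 had no peak within 500 bp, and at 16944273 a PGC peak of 67.0 RPKM lay just outside, at 553 bp. Peaks were thus called at 3 of the 6 start sites. An intronic peak, of 182.7 RPKM in PGCs, met 2 somatic peaks of 87.4 RPKM (16970051 to 16970300) and 74.5 RPKM, the former being the highest distal somatic peak of the gene. In the flank, an intron of lncRNA:iab8 held a PGC-only peak of 136.2 RPKM (16918951 to 16919300). Of 14 PGC peaks 7 were shared, as were 8 of 9 somatic peaks.

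**Figure D2:**
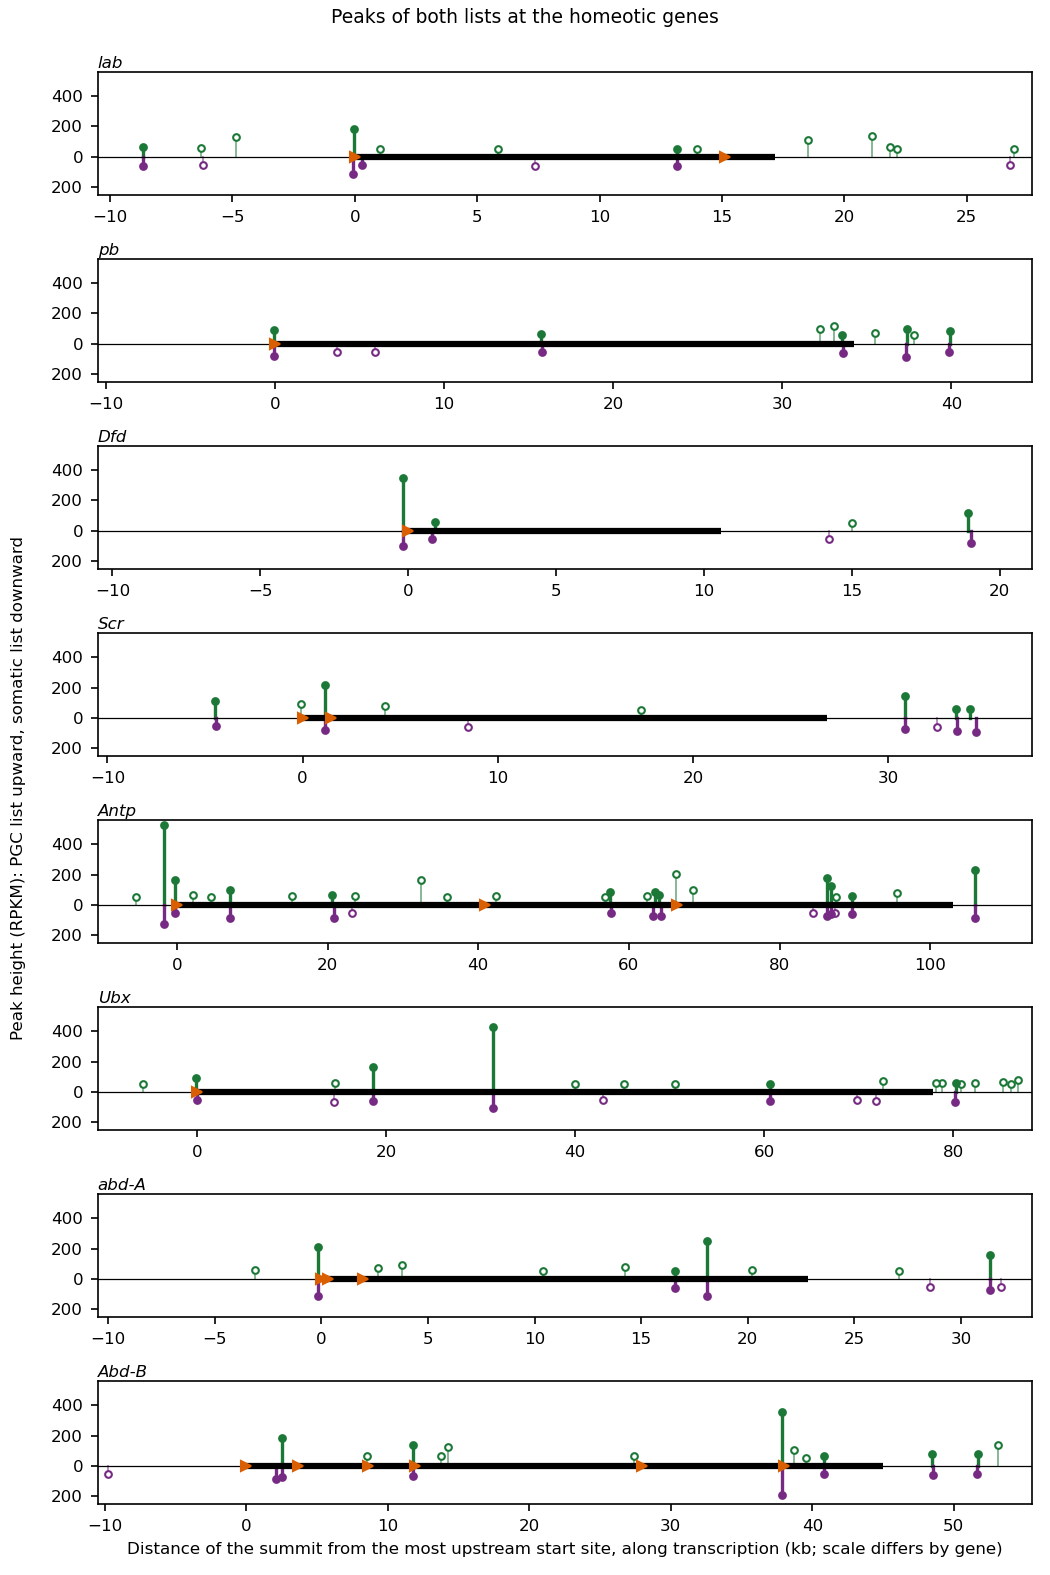
Peaks of both lists along the 8 homeotic genes. The horizontal axis gives the distance of each summit from the most upstream start site along the direction of transcription, in kilobases, on a scale that differs by gene, and the vertical axis the height in RPKM, upward for the PGC list (green) and downward for the somatic list (purple). Filled dots are shared peaks, open dots are peaks of 1 list only, black bars are gene bodies and orange arrowheads are start sites. Most high PGC peaks, such as 429.6 RPKM in the Ubx intron, stand above a somatic peak at the same place, and most open dots lie close to the axis.

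Over the 19 distinct start sites of the 8 genes, 10 had a peak in both lists, 3 had a peak in the PGC list only (upstream Scr, downstream Antp and 16963641 of Abd-B), 0 had one in the somatic list only and 6 had none. Among 19252 start sites of protein-coding genes, 44.8% had a PGC peak, and 53.1% of these had no somatic one. The 10 sites with both peaks include neighbouring start sites of abd-A that share 1 peak. At lab, Antp, abd-A and Abd-B, the start sites without a peak stood in the same gene as others with high ones.

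A somatic peak was met by 43 of the 102 PGC peaks (42.2%, interval 32.4 to 52.3%), compared with 39.3% of all PGC peaks. A PGC peak was met by 45 of the 63 somatic peaks (71.4%, interval 58.7 to 82.1%), compared with 45.9% of all somatic peaks. The PGC share was near the background, whereas the somatic share was above it. With both lists cut at 80 RPKM, the somatic share was close to the background, 81.2% against 75.2% of all. For distal peaks, whose summits lie over 500 bp from every start site of any gene, 29 of 77 PGC peaks were shared (37.7%, against 37.9% of all distal PGC peaks) and 29 of 43 somatic peaks (67.4%, interval 51.5 to 80.9%, against 36.2%). For promoter peaks of any gene in the windows, 14 of 25 PGC peaks were shared, against 41.7% of all, and 16 of 20 somatic peaks, against 74.1%. The somatic share thus stood further above the background at distal sites than at promoters. Among somatic peaks of at least 60 RPKM, 29 of 32 were shared (90.6%, interval 74.98 to 98.02%), against 73.3% of all such peaks, and among PGC peaks of at least 60 RPKM 37 of 66 were shared, against 52.3%.

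Peaks found in only 1 list were mostly low, as in the whole lists. The 59 PGC-only peaks had a median height of 59.9 RPKM (57.7 RPKM over all PGC-only peaks), and 30 of them lay below 60 RPKM, while the 18 somatic-only peaks had a median of 53.0 RPKM (54 RPKM over all), and 15 of them lay below 60 RPKM. Of these, 5 PGC-only and 4 somatic-only peaks lay within 200 bp of a peak of the other list. Since both lists end at 50 RPKM, such a peak may have a counterpart just under the threshold in the other list, which the lists cannot show. At 100 RPKM or more the windows held 29 PGC peaks, of which 9 had no somatic peak (27.1% of all PGC peaks of that height had none), and 6 somatic peaks, which all overlapped a PGC peak, as did 99% of the 908 somatic peaks of that height in the whole list. Both counts were thus close to the background. The share of PGC peaks in common was 27 of 59 in the Antennapedia complex and 16 of 43 in the Bithorax complex, and that of somatic peaks 28 of 39 and 17 of 24.

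The windows held 20.5 PGC peaks and 12.7 somatic peaks per 100 kb, compared with 14.6 and 13.0 over the chromosomes. PGC peaks covered 5.51% of the 497524 bp in the windows (4.198% of the chromosomes) and somatic peaks 2.91% (2.93%). Among windows of the 1865 long genes the median density was 14.8 PGC peaks per 100 kb (middle 50% of windows 8.57 to 22.6) and 12.2 somatic peaks (5.81 to 21.3). The windows of 7 homeotic genes in the PGC list and of 6 in the somatic list lay above the median. Most lay within the middle range of long genes, and only lab (35.0 peaks per 100 kb) and abd-A (25.7) exceeded it, both in the PGC list. By gene, the median width ranged from 100 bp (lab) to 250 bp (Dfd) in the PGC list and from 100 bp (lab and Ubx) to 300 bp (Scr) in the somatic list, and over all windows it was 200 bp in both lists, against 150 bp in each whole list. The highest and widest peaks coincided in part, as the 353.9 RPKM promoter peak of Abd-B was 950 bp wide.

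By place, 77 of 102 PGC peaks were distal (75.5%, interval 66.0 to 83.5%), against 62.5% of all PGC peaks, and 43 of 63 somatic peaks (68.3%, interval 55.3 to 79.4%), against 74.3% of all somatic peaks. In PGCs the homeotic windows therefore held more distal sites than the list as a whole, and in somatic cells the interval included the background. Distal peaks lay mainly in introns, 46 in PGCs and 29 in somatic cells, compared with 20 and 8 in exons and 11 and 6 between genes. Introns took 45.1% of the PGC peaks and 46.0% of the somatic peaks, against 21.0% and 23.1% of the whole lists. Introns also make up more of the windows, 58.8% of their bases against 39.4% of the chromosomes. Of the peaks in the flanks, 25 PGC peaks and 15 somatic peaks lay in or at another gene and over 500 bp from the start sites of the homeotic genes.

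For the 43 shared PGC peaks, the height in PGCs was compared with that of the highest somatic peak they overlapped. The median ratio was 1.61-fold (log2 ratio 0.68, range -0.60 to 2.34), compared with 1.15-fold (log2 ratio 0.20) over all 7667 shared peaks. The PGC peak was the higher one in 35 cases (64.5% of all shared peaks) and the somatic peak in 8 (35.3%), and 16 PGC peaks were at least 2-fold higher (23.3%). Of the 43 ratios 30 lay above the median of all shared peaks. The median log2 ratio was 0.91 at the 9 peaks of homeotic promoters, 0.60 at 5 other promoters and 0.25 at 29 distal peaks. By gene it was lowest at pb and lab (0.19 and 0.20) and highest at Scr and abd-A (1.03 and 1.01).

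A somatic peak must reach 50 RPKM to be listed at all, and the ratio was larger among high PGC peaks. Among shared peaks of at least 100 RPKM in PGCs, the median ratio was 2.25-fold for 20 homeotic peaks and 2.23-fold for all 2822 peaks, and 16 of the 20 were at least 2-fold higher in PGCs, against 63.4% of all. Among high peaks the median ratio in the windows was therefore close to that of other loci. In the windows 29 of the 102 PGC peaks reached 100 RPKM, against 19.9% of all PGC peaks, and no interval was taken for this share. Some of the 29 lay at promoters of other genes, such as 527.0 RPKM at lncRNA:CR45899 and 137.3 RPKM at CG1307 and twr. The 102 PGC peaks had a median of 66.8 RPKM against 62.1 RPKM in the whole list, and the 63 somatic peaks one of 60.3 against 56.9 RPKM.

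**Figure D3:**
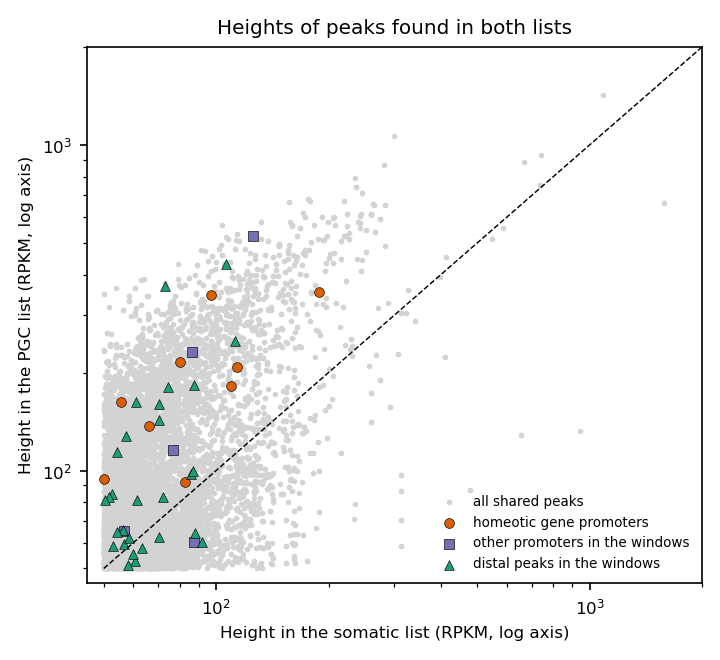
Heights of shared peaks in the somatic list (horizontal) and in the PGC list (vertical), in RPKM on log axes, with equal heights on the dashed line. Grey dots are all 7667 shared peaks, and coloured symbols are the 43 shared peaks of the homeotic windows, split into promoters of homeotic genes, promoters of other genes and distal peaks. All 9 homeotic promoter peaks lie above the line, and 8 of the 43 lie below it.

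Short motifs were searched on both strands within 100 bp of each summit, with overlapping matches allowed. The GAGA factor motif GAGAG was present at 46 of 102 PGC peaks (45.1%, interval 35.2 to 55.3%), against 35.3% of all PGC peaks, and at 23 of 63 somatic peaks (36.5%), against 32.5%. The Pleiohomeotic core GCCAT was present at 51 PGC peaks (50%, interval 39.9 to 60.1%), against 37.2%, and at 37 somatic peaks (58.7%, interval 45.6 to 71.0%), against 39.1%. For GCCAT, the intervals of both lists lay above the background, and for GAGAG they included it. Among PGC peaks of at least 100 RPKM, GAGAG and GCCAT were each present at 19 of 29 (65.5%, interval 45.7 to 82.1%), against 47.2% and 31.8% of all PGC peaks of that height. The interval thus included the share of all such peaks for GAGAG and lay above it for GCCAT. At homeotic PGC peaks below 100 RPKM the Pleiohomeotic core was present at 43.8% (interval 32.2 to 56.0%), which overlaps the interval of the high peaks, and at 38.6% of all PGC peaks below that height. It was present at 28 of 43 shared PGC peaks (65.1%) and at 23 of 59 PGC-only peaks (39.0%), against 36.1% and 37.9% over the whole list. These letters were counted as written, and binding of either factor was not measured here.

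**Figure D4:**
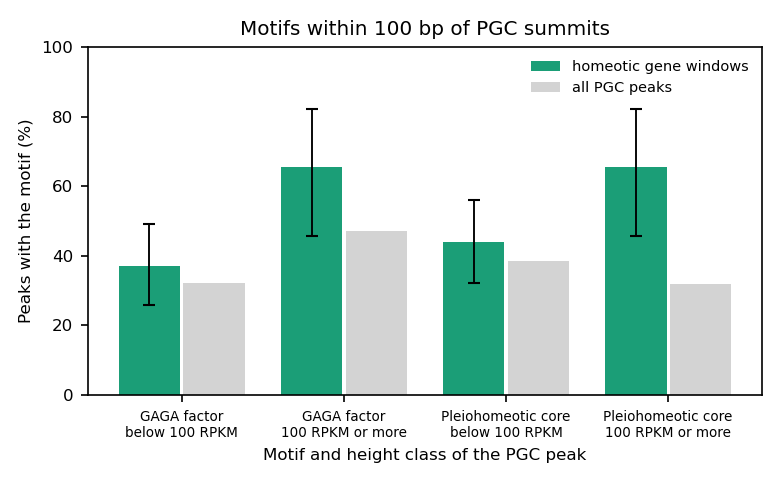
Share of PGC peaks (vertical axis, percent) with the GAGA factor motif or the Pleiohomeotic core within 100 bp of the summit, for peaks below 100 RPKM and of 100 RPKM or more. Green bars are the peaks of the homeotic windows with their exact 95% binomial intervals, and grey bars are all PGC peaks. Among the high peaks both green bars reach 65.5%, while the grey bars reach 47.2% for GAGAG and 31.8% for GCCAT. The interval of the high peaks includes the grey bar for GAGAG and lies above it for GCCAT.

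Other motifs were rare. The motif CAGGTA of Zelda, which opens chromatin in the early embryo, was present at 4 PGC peaks (3.92%, against 6.2% of all) and at 3 somatic peaks (4.76%, against 7%). The homeodomain core TAATTA was present at 4 PGC peaks (3.92%, against 4.04%) and 2 somatic peaks (3.17%, against 3.62%). The core AGGNGGCGC of the insulator protein CTCF was present at 2 PGC peaks (1.96%, against 1.04%) and 2 somatic peaks (3.17%, against 0.988%). The CTCF matches were at the same places in both lists, an Antp intron (127.8 RPKM in PGCs against 57.5 RPKM in somatic cells) and the Abd-B intron with 182.7 RPKM in PGCs. These counts are too small to set any of the shares apart from the background.

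Of 10 other genes of both complexes, 5 had a promoter peak in the PGC list and 3 in the somatic list. Over all protein-coding genes the shares were 48.2% and 28.2%, but the 10 include RNA genes, for which no background share was taken. The genes zen, a dorsal patterning gene, and bcd, the anterior morphogen, had highest promoter peaks of 70.5 and 89.3 RPKM in PGCs, both absent from the somatic list. A lower PGC promoter peak of zen, 65.0 RPKM, overlapped a somatic peak of 56.2 RPKM whose summit lay in an exon. The pair-rule gene ftz had 83.4 RPKM in PGCs against 55.0 RPKM in somatic cells, and Ama, which encodes a secreted immunoglobulin-domain protein, had 83.5 and 51.2 RPKM. The noncoding gene lncRNA:iab8 had the highest of these, 238.0 RPKM in PGCs against 115.9 RPKM in somatic cells, while zen2, lncRNA:bxd, mir-iab-4, mir-iab-8 and mir-10 had none. The listed protein-coding genes of the Antennapedia complex (zen2, zen, bcd, Ama and ftz) had lower PGC promoter peaks than every homeotic gene, or none. The margin was small, with 89.3 RPKM at bcd against 92.4 RPKM at pb. Without a spread, it cannot be said whether these differ.

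Of 8 genes for cofactors, partners and upstream regulators of homeotic proteins, 7 had a promoter peak in the PGC list and 6 in the somatic list. Over all protein-coding genes these shares were 48.2% and 28.2%. The cofactor genes hth and exd, whose products bind DNA together with homeotic proteins, had 511.0 and 108.1 RPKM in PGCs, with 195.0 RPKM at hth and no peak at exd in somatic cells. The trunk gene tsh had 480.3 RPKM in PGCs against 119.8 RPKM in somatic cells, and its paralog tio 278.3 and 110.8 RPKM. The gene disco had no promoter peak in either list, whereas its paralog disco-r had 293.8 and 114.7 RPKM. The gap gene hb, which limits the domains of homeotic genes, was the only one with a higher peak in the somatic list (87.1 against 77.1 RPKM), and cad, a posterior homeobox gene, had 312.7 RPKM in PGCs against 90.8 RPKM in somatic cells.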

How the data were processed

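ATAC-seq libraries of sorted PGCs and somatic cells (2 replicates each) were processed by the authors. Adapters were trimmed with cutadapt 4.2, reads aligned to release 6 (Dmel_R6.32, dm6) with Bowtie2 2.5.1, duplicates removed with SAMtools 1.17, and RPKM coverage outside blacklisted regions was computed and averaged over both replicates with deepTools 3.5.4. Peaks were called on the average with bdgpeakcall of MACS2, with a cutoff set by hand. The peak score deposited by the authors was taken as 10 times the height in RPKM and divided by 10. RPKM scales by mapped reads, so a library with more reads outside peaks has lower peaks. The list names mention uniquely mapping reads. Reads behind a peak and the depth per sample are unknown. The ovarian small RNA libraries were not analysed here.

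Start sites, exons and introns came from Ensembl release 115, and sequences from the RefSeq copy of release 6. A peak was placed by its summit (in a promoter if a start site was within 500 bp, otherwise in an exon, an intron or between genes), and lists shared a peak at 1 bp of overlap. Lists, widths and motifs were handled with Python 3.11.15, numpy 2.4.6, scipy 1.17.1 and matplotlib 3.10.9, and the steps were tested on simulated peaks. No test between cell types was made. The genes, gene lists and motifs were chosen with earlier results of these data known. Named peaks were the highest promoter and distal peak of each gene and list, and the 5 highest PGC-only and somatic-only peaks. A further intronic peak of Abd-B is not reported here and was left out of the plots by gene. Alternatives were a threshold of 80 RPKM, the 10000 highest peaks, 5000 bp or no flanks, summit placement, 50% reciprocal overlap, promoter distances of 250 and 1000 bp, scaling by the list median, and motif windows of 50 and 200 bp.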

Additional observations from a re-analysis of the deposited data

How the results depend on the processing

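Of 77 alternative values, 54 stayed within the interval or 1.5 times of the reported value, 23 moved further, and none of the 7 values of the log2 ratio, the only one with a sign, changed direction. At a threshold of 80 RPKM, the windows held 43 PGC peaks and 16 somatic peaks, 30.2% of the PGC peaks were shared (25.4% of all such peaks), 60.5% of the PGC and 43.8% of the somatic peaks were distal (37.3% and 55.7% of all), and the median log2 ratio was 1.06 (0.77 over all). Of the somatic peaks at that threshold 81.2% were shared, against 75.2% of all, so the difference seen at 50 RPKM was smaller there. With the 10000 highest peaks of each list there were 61 PGC peaks, and with gene bodies alone 66 PGC and 40 somatic peaks. With a 50% reciprocal overlap 27.5% of the PGC and 44.4% of the somatic peaks were shared (18.1% and 20.3% of all). With promoters of 1000 bp, 62.7% of the PGC peaks were distal (interval 52.6 to 72.1%, against 49.8% of all), so the share of distal PGC peaks stayed above that of the whole list in both settings. Motif windows of 50 bp gave GAGAG at 29.4% of PGC and 20.6% of somatic peaks (23.1% and 19.3% of all), GCCAT at 34.3% and 42.9% (21.3% and 22.7%), and TAATTA at 0.00% of somatic peaks (1.44%). Windows of 200 bp gave GAGAG at 61.8% and 60.3% (50.7% and 50.3%), GCCAT at 72.5% and 84.1% (58.3% and 61.4%), and TAATTA at 12.7% and 11.1% (12.2% and 8.86%). For GCCAT the intervals of both lists lay above the share of all peaks in both windows. Scaled by the list median, the median log2 ratio was 0.56 (0.07 over all).

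Promoter peaks were found at 8 genes in the PGC list under every alternative. In the somatic list they were found at 6 genes at 80 RPKM (not at Antp and Ubx) and with gene bodies alone (not at Dfd and Antp), and at 7 among the 10000 highest peaks (not at Ubx) and within 250 bp (not at Scr). No paired analysis was possible because each list holds the average of its replicates, which also prevents leaving out a replicate.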

Other observations

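The intervals between the windows were looked at after the data were seen. Between the windows of Ubx and abd-A, 10 PGC peaks and 8 somatic peaks lay within 52787 bp, 5 of each shared. The highest, in an intron of lncRNA:bxd (16763601 to 16764450), was at 567.5 RPKM in PGCs, with 103.9 RPKM in somatic cells, above every peak inside the windows in the PGC list. The bxd region regulates Ubx and is known to hold a Polycomb response element; whether this peak covers it was not determined. Its summit sequence is shown for the density of GA motifs and Pleiohomeotic cores (capitals).
bxd intron, chr3R:16764126-16764325, reverse strand: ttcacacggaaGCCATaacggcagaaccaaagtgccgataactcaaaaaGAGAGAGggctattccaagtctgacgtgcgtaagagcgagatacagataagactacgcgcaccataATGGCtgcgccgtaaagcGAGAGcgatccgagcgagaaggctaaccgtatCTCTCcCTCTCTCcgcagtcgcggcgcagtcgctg
Between abd-A and Abd-B, in the iab region that regulates both genes, 12 PGC peaks and 11 somatic peaks lay within 77162 bp, 8 and 9 of them shared. The high ones were found in both lists, with 302.4, 245.9, 242.4, 238.0 and 176.3 RPKM in PGCs beside 112.0, 106.8, 81.3, 115.9 and 67.0 RPKM in somatic cells.

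The Antennapedia complex had no such high peaks between its windows, but its intervals were shorter, at 9209, 29772, 691 and 26271 bp. Peaks of 527.0 and 231.6 RPKM in PGCs lay in the flanks of the Antp window. The contrast between the complexes therefore depends on where the windows end. Between pb and Dfd, 9 PGC peaks reached at most 89.3 RPKM and 6 somatic peaks at most 94.2 RPKM, and between Scr and Antp 3 PGC and 4 somatic peaks reached 83.4 and 68.1 RPKM. Between lab and pb there were 0 PGC peaks and 4 somatic peaks of 51.3 to 58.1 RPKM, all among the cuticle genes of the Ccp84A cluster.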
